A study of Sus scrofa with 24 samples.

Results

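The interaction between the type of early microbiota and the diet was examined in the oxyntic mucosa, which lines the gastric body and secretes acid, of 24 piglets of 3 weeks of age. It was computed for all 10882 genes that had a single symbol on the array, from all 24 arrays of the series, 1 array per piglet and 6 piglets in each of 4 groups. All piglets were of a (Great York x Pietrain) x 'Dalland' cross, were born by caesarean section, received pasteurized sow colostrum at birth and were then given the same starter microbiota of Lactobacillus amylovorus, Clostridium glycolicum and Parabacteroides. Piglets of the complex association (CA) afterwards received diluted faeces of an adult sow, and piglets of the simple association (SA) a placebo. They were fed a control diet (CON) or the same diet with coconut oil, a source of medium chain triglycerides, in place of most of the soy oil and palm oil (MCT), which gave the groups SA CON (pigs 13 to 18), CA CON (pigs 1 to 6), SA MCT (pigs 19 to 24) and CA MCT (pigs 7 to 12). No group was free of microbes, and because one fat replaced another, coconut oil and the loss of the other oils cannot be told apart.

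The labels place the CA and SA piglets in separate rooms with pens inside each, without saying which pen held a piglet, so microbiota and room cannot be told apart and an effect of the pen was not tested. The housing text was written for 12 piglets and the treatment text also covers jejunal samples of older animals, whereas each sample's own entries name the oxyntic mucosa and this age. The tissue label matched its markers. ATP4A and ATP4B, the subunits of the gastric proton pump of parietal cells, lay at log2 intensities of 11.56 to 11.92 and of 11.19 to 11.52 over the 24 piglets, and PGA5, a pepsinogen of chief cells, at 11.72 to 12.20. The arrays of pig 4 (CA CON), pig 10 (CA MCT) and pig 22 (SA MCT) stood apart, with median correlations with the other arrays of 0.960, 0.981 and 0.985 against 0.988 to 0.994 for the other 21 arrays. Many of the results that rest on them, but not all, are given with and without them.

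The stomach lining meets microbes and dietary fat before the rest of the gut. Cells that sense viral or microbial nucleic acids release type I interferons, which switch on effector genes such as the OAS, IFIT and MX families in the surrounding cells, while interferon gamma from T and NK cells raises antigen presentation genes and the chemokines that draw further lymphocytes. Medium chain fatty acids are taken up without re-esterification into chylomicrons and are readily oxidised. Secretory cells of the gastric glands, which make pepsinogen, mucins and intrinsic factor, depend on ribosome production and on the chaperones of the endoplasmic reticulum (ER).

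The comparison asked whether the difference between CA and SA piglets was the same on both diets. The interaction value of a gene was the CA minus SA difference on MCT minus the CA minus SA difference on CON, on the log2 scale. A negative value therefore means that CA stood lower relative to SA on MCT than it did on CON, and a value of 1 is a change of the CA to SA ratio by a factor of 2. No gene passed an adjusted p of 0.05 in the limma model of the 4 group means (0 of 10882 genes, 0%, lowest adjusted p = 1.00), so no gene below is described as changed by the combination. Robust regression, one of the alternatives, passed 5 genes, among them STPG2 (adjusted p = 0.00467) and UPK2, ANGPTL7 and PSMB9 (adjusted p = 0.0394 each), which are described below, and SLC38A3 (-0.47 ± 0.09, adjusted p = 0.0476), a glutamine transporter, whose value in the ordinary fit was -0.32 ± 0.23, and -0.18 without pig 10. At an unadjusted p under 0.05 there were 275 genes (2.53%), 139 with a positive value (1.28%) and 136 with a negative value (1.25%), where 544.1 genes would pass at that limit if the p-values were uniform. Positive values were found in 5334 genes (49%) and negative values in 5548 (51%).

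Most values were small against their error. The median over all genes was 0.00, the 5th and 95th percentiles were -0.27 and 0.26, and the median standard error (SE) was 0.16. The half-width of the 95% confidence interval had a median of 0.331, and for 10608 genes (97.5%) the whole interval lay between -1 and 1, whereas it lay between -0.5 and 0.5 for 63% of genes. The 6 piglets per group thus bounded most interactions to less than a 2-fold change of the CA to SA ratio, and left smaller ones open. Only 6 genes had a value beyond 1 in either direction, TAAR1 (-1.36 ± 0.52 SE), a receptor for trace amines, GTSF1 (-1.31 ± 0.64), CA8 (-1.14 ± 0.42), CHAC1 (-1.06 ± 0.47), LOC100621421 (1.05 ± 0.51) and RTL4 (-1.04 ± 0.55). Without pig 20 the value of CHAC1 was -0.69 and that of RTL4 -0.69. With 1 piglet left out, TAAR1 came to -0.999 (without pig 13) and CA8 to -0.95 (without pig 9). Without pig 4 the value of LOC100621421 was 0.70 and that of GTSF1 -1.01.

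Across genes, the CA minus SA differences on the 2 diets, which share no piglet, had a Pearson correlation of 0.149 and a Spearman correlation of 0.148 (10882 genes, which are not independent replicates), and a Pearson correlation of 0.118 without pigs 4, 10 and 22. Of the 275 genes at an unadjusted p under 0.05, 264 had CA minus SA differences of opposite sign on the 2 diets, a feature that a large difference between the diets favours by its definition. Among all genes the signs were opposite in 4784 and the same in 6098.

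**Figure D1:**
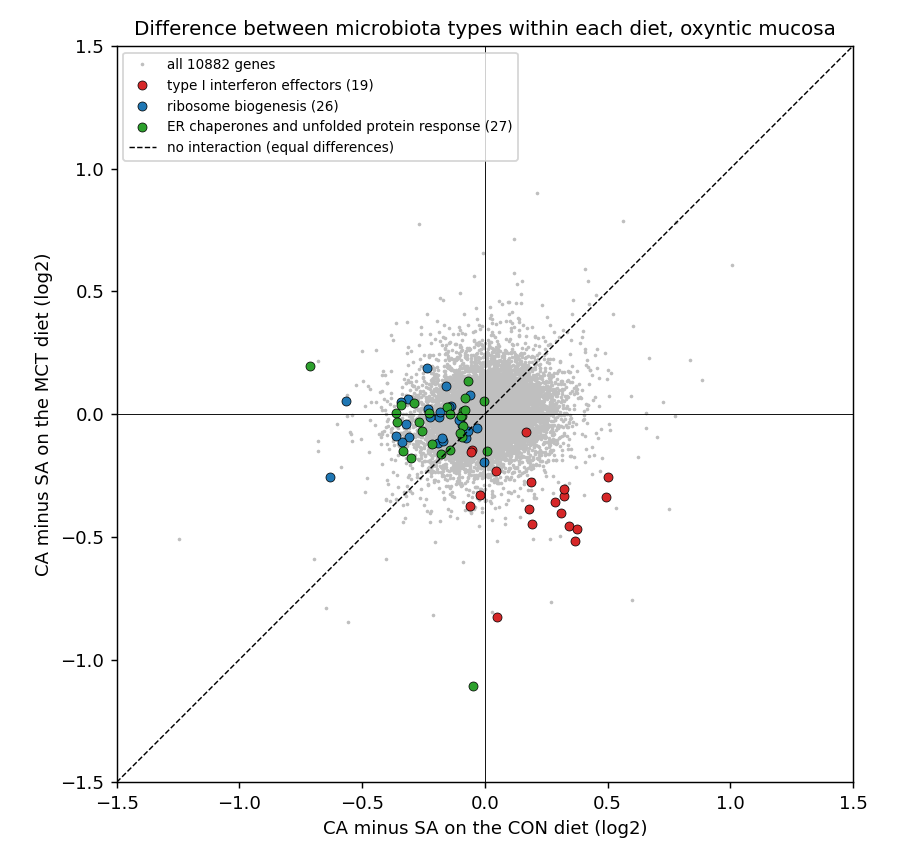
Each point is a gene, with the CA minus SA difference on the CON diet (log2) on the x axis and on the MCT diet (log2) on the y axis, and the vertical distance from the dashed line is its interaction value. The 19 type I interferon effectors (red) all lie below the dashed line and mostly in the lower right, and most of the 26 ribosome biogenesis genes (blue) and 27 ER chaperone genes (green) lie to the left of zero and above the line.

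The 10 genes with the lowest interaction statistics (value divided by its SE) held 3 parts of the vacuolar proton pump, the complex that acidifies lysosomes and other organelles and is distinct from the gastric proton pump. VMA21, an assembly factor of the pump, came first (-0.46 ± 0.12 SE, unadjusted p = 0.000853, the lowest of all genes). Its lowest, median and highest log2 intensities were 4.93, 5.20 and 5.47 in SA CON, 5.25, 5.36 and 5.61 in CA CON, 5.25, 5.34 and 5.39 in SA MCT and 4.83, 5.09 and 5.21 in CA MCT. The 6 CA MCT piglets lay below all 6 SA MCT piglets, whereas on CON the CA piglets were the higher ones and the groups overlapped. The gene was picked by this contrast from all genes, so its separation on MCT is no separate support.

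ATP6V1C2, a C subunit of the cytosolic part of the pump, had lowest, median and highest log2 intensities of 2.54, 2.66 and 2.80 in SA CON, 2.71, 2.85 and 3.31 in CA CON, 2.56, 2.81 and 3.25 in SA MCT and 2.37, 2.58 and 2.70 in CA MCT (interaction -0.50 ± 0.15). Pigs 4 and 22 were the highest of their groups, the groups overlapped on both diets, and the value was -0.33 ± 0.11 without these 2 piglets. ATP6V1C1, the other C subunit, stood at medians of 7.30 in SA CON, 7.42 in CA CON, 7.38 in SA MCT and 7.29 in CA MCT (range over all piglets 6.97 to 7.65, interaction -0.34 ± 0.11). Here too the CA piglets were the higher ones on CON and the lower ones on MCT, with overlap on both diets. Of the 26 genes of the pump, a list written after these leading genes had been seen and therefore not tested, 19 were measured, 13 had negative values, and the median was -0.09, with 3 members (15.8%) at an unadjusted p under 0.05, against a median of 0.00 and 2.53% over all genes. Subunits of the pump did not share 1 pattern, since ATP6V1A, the catalytic subunit, had a value of -0.12 ± 0.13 and ATP6V1H one of 0.01 ± 0.11.

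FLT3LG, the ligand that expands dendritic cell precursors, was another of the 10 lowest and had lowest, median and highest log2 intensities of 5.45, 5.62 and 5.83 in SA CON, 5.42, 5.77 and 6.17 in CA CON, 5.74, 5.84 and 6.10 in SA MCT and 5.18, 5.49 and 5.79 in CA MCT (interaction -0.56 ± 0.17). On MCT all but 1 of the CA piglets lay below all SA piglets, and on CON the CA group spread over the whole SA range. JAK3, the kinase behind the receptors of the common gamma chain cytokines, had medians of 4.37 in SA CON, 4.55 in CA CON, 4.59 in SA MCT and 4.44 in CA MCT (interaction -0.38 ± 0.12), and its groups overlapped on both diets.

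MMP3 or stromelysin, a protease that degrades matrix and is made by fibroblasts under inflammatory signals, had lowest, median and highest log2 intensities of 3.76, 3.99 and 4.42 in SA CON, 3.70, 4.71 and 5.04 in CA CON, 4.20, 4.70 and 5.16 in SA MCT and 3.86, 4.16 and 5.18 in CA MCT. In CA CON, 5 of 6 piglets lay above the highest SA CON piglet and pig 4 below the lowest, while on MCT the groups overlapped, pig 12 being the highest of all. The CA minus SA difference was 0.53 ± 0.22 on CON and -0.38 ± 0.22 on MCT, and the interaction was -0.92 ± 0.31 (95% interval -1.55 to -0.28). The remaining genes of the 10 lowest were FOXL1 (-0.41 ± 0.12), a transcription factor of the mesenchyme beneath the gut epithelium, STPG2 (-0.42 ± 0.13), LOC100525931 (-0.37 ± 0.12) and MESP1 (-0.80 ± 0.26), a transcription factor of early mesoderm. For MESP1 the lowest CA MCT piglet, pig 10, stood at 2.94 against a group median of 4.17, and the value was -0.59 without that piglet.

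At the other end UPK2, a uroplakin of the urothelial surface, had the highest statistic (0.49 ± 0.14, unadjusted p = 0.00158). Its lowest, median and highest log2 intensities were 3.77, 3.86 and 4.05 in SA CON, 3.44, 3.64 and 3.91 in CA CON, 3.44, 3.74 and 4.03 in SA MCT and 3.71, 3.97 and 4.26 in CA MCT. On CON the CA piglets were the lower ones and on MCT the higher ones, and the groups overlapped on both diets.

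FMO1, a flavin monooxygenase that oxidises drugs and dietary amines, stood at 5.05, 5.40 and 5.88 in SA CON, 4.98, 5.11 and 5.16 in CA CON, 4.64, 5.03 and 5.54 in SA MCT and 5.09, 5.39 and 5.85 in CA MCT (lowest, median and highest log2 intensity). The CA CON piglets formed a narrow group at the lower end of the SA CON range, and the interaction was 0.73 ± 0.22 (95% interval 0.29 to 1.18). BUD31, a component of the spliceosome, had medians of 7.15 in SA CON, 7.14 in CA CON, 6.91 in SA MCT and 7.29 in CA MCT (interaction 0.38 ± 0.12), and 5 of the 6 SA MCT piglets lay below the lowest CA MCT piglet, at 7.23. ANGPTL7, a secreted angiopoietin-like protein (0.48 ± 0.15), TGM1, a transglutaminase that cross-links the envelope of squamous cells (0.43 ± 0.15), and RLIM, a ubiquitin ligase (0.35 ± 0.12), were also among the 10 highest, with CCDC170, TMEM266, LOC100523684 and LOC100523626 between 0.34 and 0.57.

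In all 20 of these genes the CA minus SA difference had opposite signs on the 2 diets. Many of them were dim: 11 of the 20 remained after the 40% of transcript clusters with the lowest mean had been left out, 4 with a positive and 7 with a negative value. UPK2, ATP6V1C2 and STPG2 were among the dim genes that did not remain.

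**Figure D2:**
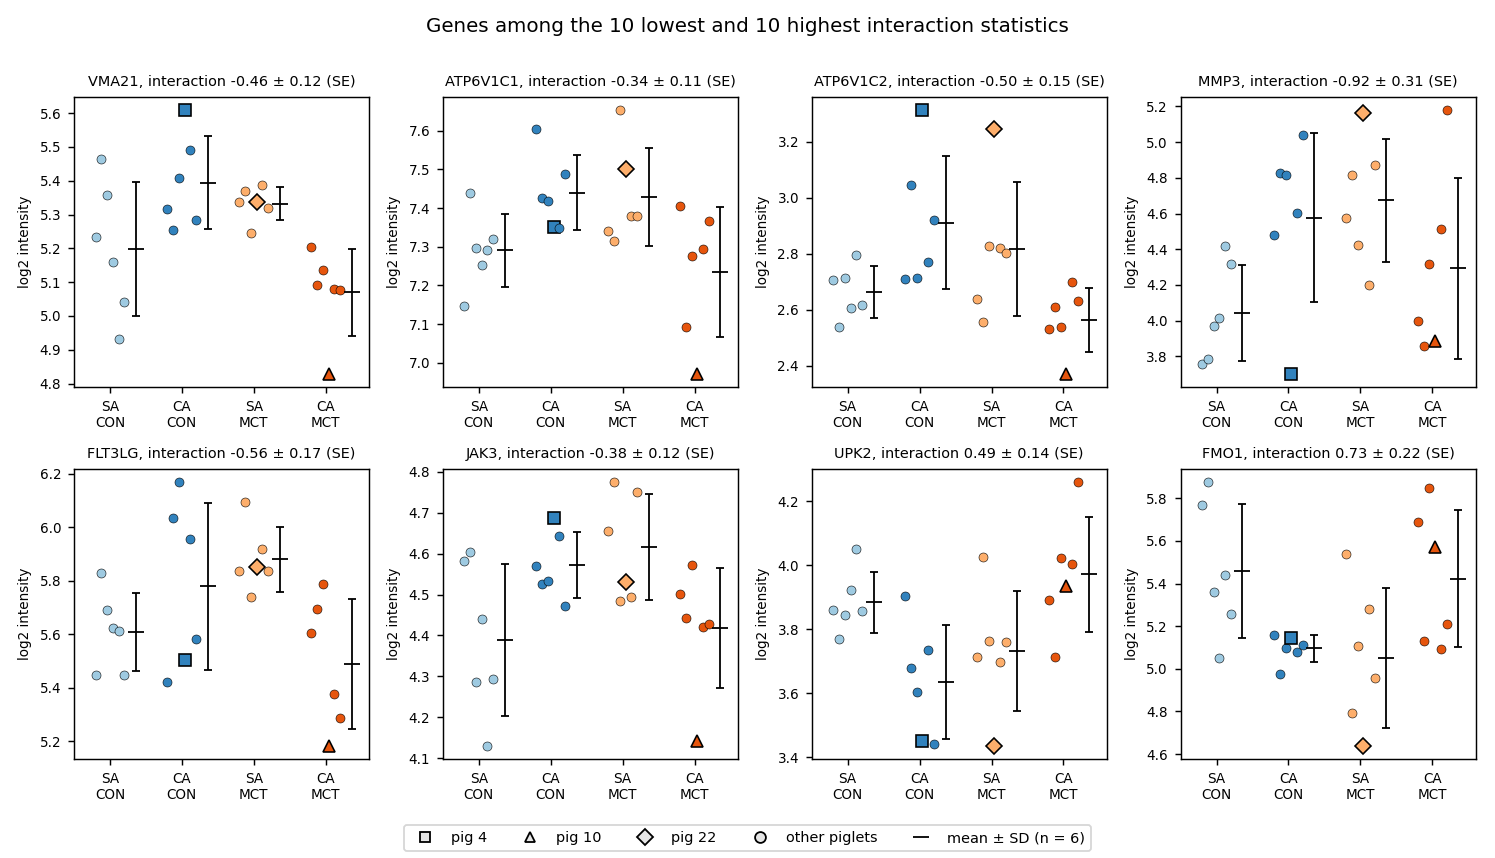
Log2 intensity (y axis) of 8 of the 20 leading genes in each piglet of the 4 groups (x axis), with the mean and SD of each group beside its points and pigs 4, 10 and 22 drawn as a square, a triangle and a diamond. For VMA21 the CA MCT piglets lie below all SA MCT piglets, and for UPK2 and FMO1 the order of CA and SA on CON is turned round on MCT.

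Of all lists examined, the type I interferon effectors had the median farthest from zero. Of 34 listed genes 19 were measured, and all 19 had a negative value, with a median of -0.64 against 0.00 over all genes, of which 51% were negative. The median CA minus SA difference of the list was 0.19 on CON and -0.34 on MCT. Seen by diet, the median MCT minus CON difference was 0.26 in SA piglets and -0.33 in CA piglets. Without pig 22 the MCT minus CON median in SA piglets was 0.07, and the CA minus SA median on MCT was -0.12. With all 24 piglets, only 2 members (10.5%, against 2.53% of all genes) were at an unadjusted p under 0.05. The members share the same 24 arrays and move together from piglet to piglet, so that 19 negative values are not 19 separate observations.

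OAS1, a sensor of double-stranded RNA that activates RNase L, had lowest, median and highest log2 intensities of 3.91, 4.29 and 5.10 in SA CON, 4.38, 4.68 and 6.20 in CA CON, 4.21, 4.59 and 5.12 in SA MCT and 3.66, 4.45 and 4.76 in CA MCT. The highest value was that of pig 4 and the groups overlapped on both diets. The interaction was -0.76 ± 0.35 (95% interval -1.47 to -0.04) and became -0.40 ± 0.26 without pigs 4 and 22. XAF1, a proapoptotic protein induced by interferon, stood at 4.69, 5.22 and 5.54 in SA CON, 5.21, 5.53 and 5.69 in CA CON, 4.69, 5.42 and 7.09 in SA MCT and 4.99, 5.11 and 5.43 in CA MCT. Pig 22 was far above the other SA MCT piglets, and the interaction was -0.71 ± 0.34 with it and -0.40 without it.

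IFIT1, which binds viral RNA lacking a host cap, had the most negative value of the list (-0.89 ± 0.46, 95% interval -1.84 to 0.07). Its medians were 4.46 in SA CON, 4.87 in CA CON, 4.86 in SA MCT and 4.53 in CA MCT, and the SA MCT piglets ran from 3.99 (pig 24) to 6.77 (pig 22), across the whole CA MCT range. IFIT3, its partner, had a value of -0.83 ± 0.44, RSAD2 or viperin one of -0.88 ± 0.56, and MX1, a GTPase that blocks viral particles, one of -0.80 ± 0.44. Without pig 22 the value was -0.54 for IFIT1, -0.58 for IFIT3 and -0.48 for RSAD2. The membrane protein IFITM1, which hinders viral entry, had the value closest to zero (-0.09 ± 0.21).

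A single piglet carried a large part of the interferon values. As the mean of the 19 members in each piglet, centred on the mean of all piglets, pig 22 stood at 1.22 and the other SA MCT piglets between -0.52 and 0.27. In CA CON the highest piglet was pig 4, at 0.51, and CA CON ran down to -0.24. SA CON ran from -0.47 to 0.24 and CA MCT from -0.54 to 0.16, so all groups overlapped. The list median was -0.38 without pig 22, -0.29 without pigs 4 and 22, when 17 of 19 members were negative and 0 at an unadjusted p under 0.05, and -0.27 without pigs 4, 10 and 22.

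Genes that interferon gamma raises were less far from zero. Of 29 listed genes 15 were measured, 12 with a negative value, and the median was -0.16, with 2 members (13.3%, against 2.53% of all genes) at an unadjusted p under 0.05. PSMB9, a subunit of the immunoproteasome that trims peptides for MHC class I, had lowest, median and highest log2 intensities of 4.98, 5.06 and 5.20 in SA CON, 4.60, 5.31 and 5.43 in CA CON, 4.87, 5.53 and 5.94 in SA MCT and 4.73, 5.15 and 5.69 in CA MCT (interaction -0.47 ± 0.22). The SA MCT piglets were the highest group by its median and all groups overlapped. GBP1, a guanylate-binding protein (-0.45 ± 0.23), and B2M, the light chain of MHC class I (-0.40 ± 0.21), had values of similar size, that of B2M being -0.26 without pig 22, while the transcription factor IRF1 had a value near zero (0.01 ± 0.17). The list median was -0.18 without pigs 4 and 22 and -0.14 without pigs 4, 10 and 22. Members at an unadjusted p under 0.05 numbered 2 without pig 4, 0 without pig 22 and 0 without pig 10.

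Among the chemokines, 23 of 29 genes were measured, 17 with a negative value, and the median was -0.11, with 2 members (8.7%, against 2.53% of all genes) at an unadjusted p under 0.05. That median was -0.18 without pig 4, -0.08 without pig 10 and -0.06 without pig 19. Members at an unadjusted p under 0.05 numbered 3 without pig 4 and 0 without pig 10. CXCL11, which attracts activated T cells through CXCR3, had lowest, median and highest log2 intensities of 3.14, 3.50 and 4.17 in SA CON, 3.97, 4.26 and 4.55 in CA CON, 3.27, 3.92 and 4.51 in SA MCT and 3.24, 3.90 and 4.52 in CA MCT. On CON the CA piglets were the higher ones, with a small overlap, and on MCT both groups covered the same range. The CA minus SA difference was 0.66 ± 0.23 on CON and -0.06 ± 0.23 on MCT, an interaction of -0.72 ± 0.32. CXCL11 was also on the interferon gamma list. It was among the 2 members at an unadjusted p under 0.05 in both lists, so these counts are not separate. CXCL10 was shared by these lists too.

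CXCL10, a ligand of the same receptor, showed the same order, with CA minus SA of 0.77 ± 0.30 on CON and -0.01 ± 0.30 on MCT and an interaction of -0.78 ± 0.42. Its SA CON piglets ran from 3.71 to 5.54 and the other 3 groups from 4.87 to 6.69, so SA CON was the low group. CCL2, which attracts monocytes, differed in shape, since its SA MCT piglets were the high group, with medians of 7.18 in SA CON, 7.41 in CA CON, 7.98 in SA MCT and 7.42 in CA MCT and an interaction of -0.64 ± 0.29. Pig 22 was the lowest SA MCT piglet for CCL2, at 7.01, and without pigs 4 and 22 the value was -0.83 ± 0.27. CCL19, which guides dendritic and T cells, had the highest value of the list (0.40 ± 0.28).

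**Figure D3:**
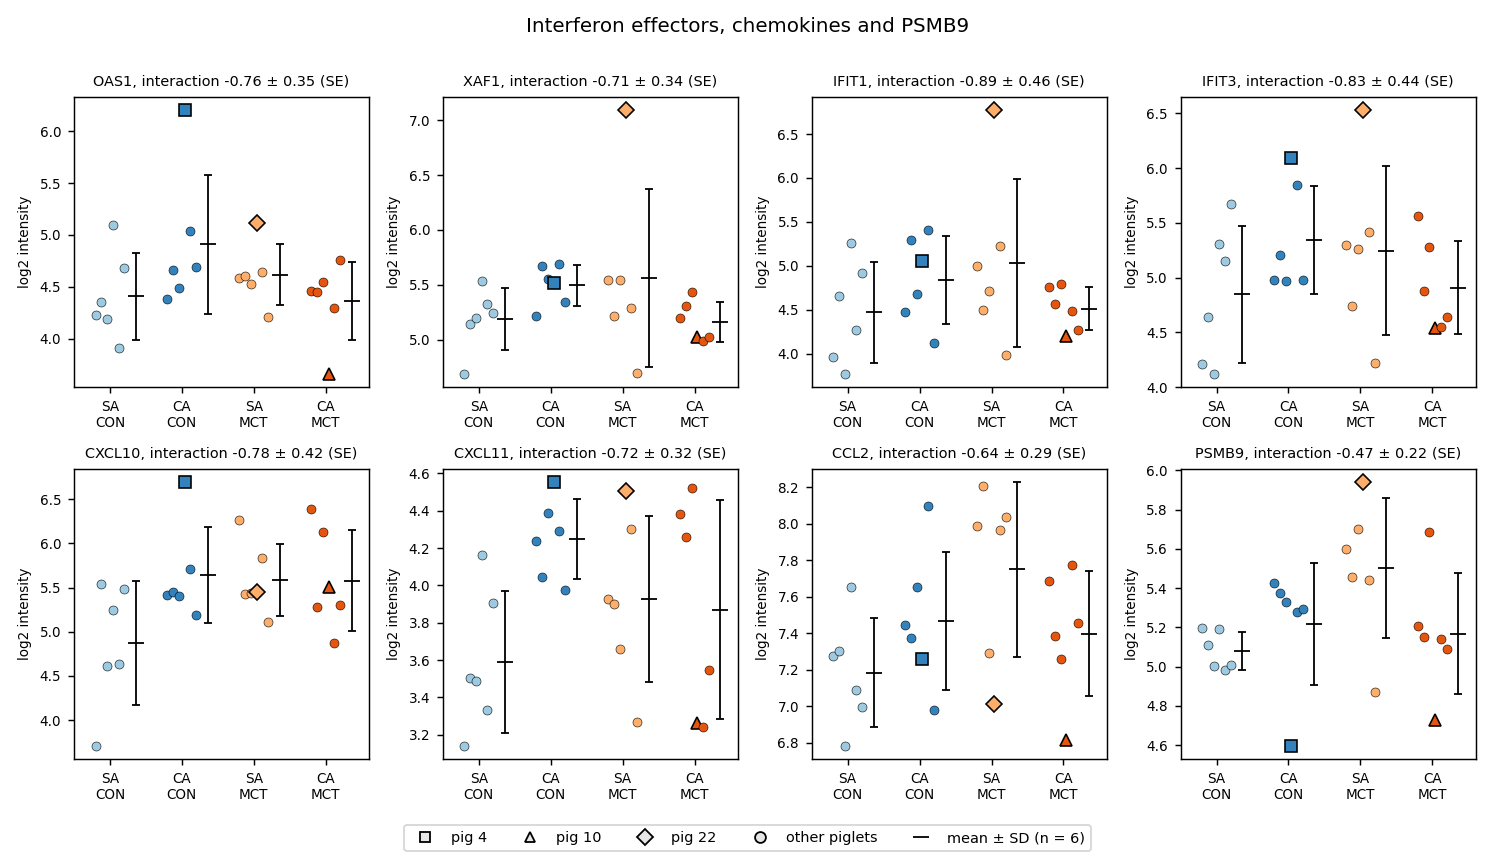
Log2 intensity (y axis) of 4 interferon effectors, 3 chemokines and PSMB9 in each piglet of the 4 groups (x axis), with the mean and SD of each group beside its points. Pig 22 (diamond) is the highest SA MCT piglet for OAS1, XAF1, IFIT1 and IFIT3, and the lowest one for CCL2.

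Markers of immune cells were measured on the same arrays. In bulk mucosa, fewer cells of a type and less RNA per cell cannot be told apart. Of 18 measured T cell markers 16 had a negative value, against 51% of all genes. The median was -0.19, and -0.26 without pig 9 and -0.14 without pig 10. Only 1 member (5.56%, against 2.53% of all genes) was at an unadjusted p under 0.05, CD5, a scavenger receptor on T cells (-0.48 ± 0.20). Without pig 10 there were 0 such members. The mean of the 18 markers ran from -0.16 to 0.11 in SA CON, from -0.05 to 0.17 in CA CON, from -0.09 to 0.21 in SA MCT and from -0.35 to 0.27 in CA MCT, so the groups overlapped widely. Of 20 cytotoxic and NK cell markers 15 were negative (median -0.14, and -0.19 without pig 4 and -0.10 without pig 22). NCR3, an activating receptor of NK cells (-0.33 ± 0.12), and GZMB, a protease of cytotoxic granules (-0.45 ± 0.17), led them, whereas PRF1, the pore former of the same granules, had a value of 0.02 ± 0.14. Many of these markers were dim, with a median log2 level of 3.45 over the list against 5.26 over all genes. The mean of the 20 markers ran from -0.17 to 0.04 in SA CON, from -0.08 to 0.12 in CA CON, from -0.11 to 0.21 in SA MCT and from -0.10 to 0.05 in CA MCT. The part of these cells in the interferon and chemokine values was not tested.

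Among 10 neutrophil markers 6 were negative (median -0.18, and -0.02 without pig 4), with MMP9, a gelatinase of neutrophil granules, at -0.59 ± 0.28. Macrophage and dendritic cell markers were negative in 13 of 21 (median -0.08, and -0.02 without pig 4), and SIGLEC1, a macrophage receptor that is itself raised by type I interferon in other species, had a positive value (0.37 ± 0.16), unlike the interferon effectors. B and plasma cell markers had a median of -0.02 (10 genes, and -0.09 without pigs 4 and 22), fibroblast markers one of -0.02 (18 genes) and endothelial markers one of -0.03 (8 genes). The endothelial median was -0.12 without pigs 4 and 22 and -0.16 without pigs 4, 10 and 22, when 7 of the 8 markers were negative. Among 9 smooth muscle markers the median was 0.06 (-0.06 without pig 14 and 0.14 without pig 3), with ACTA2, smooth muscle actin, at 0.30 ± 0.13. Of 19 genes of Toll-like receptors and the inflammasome 17 had a negative value (median -0.12, and -0.07 without pigs 4 and 22), none of them at an unadjusted p under 0.05.

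**Figure D4:**
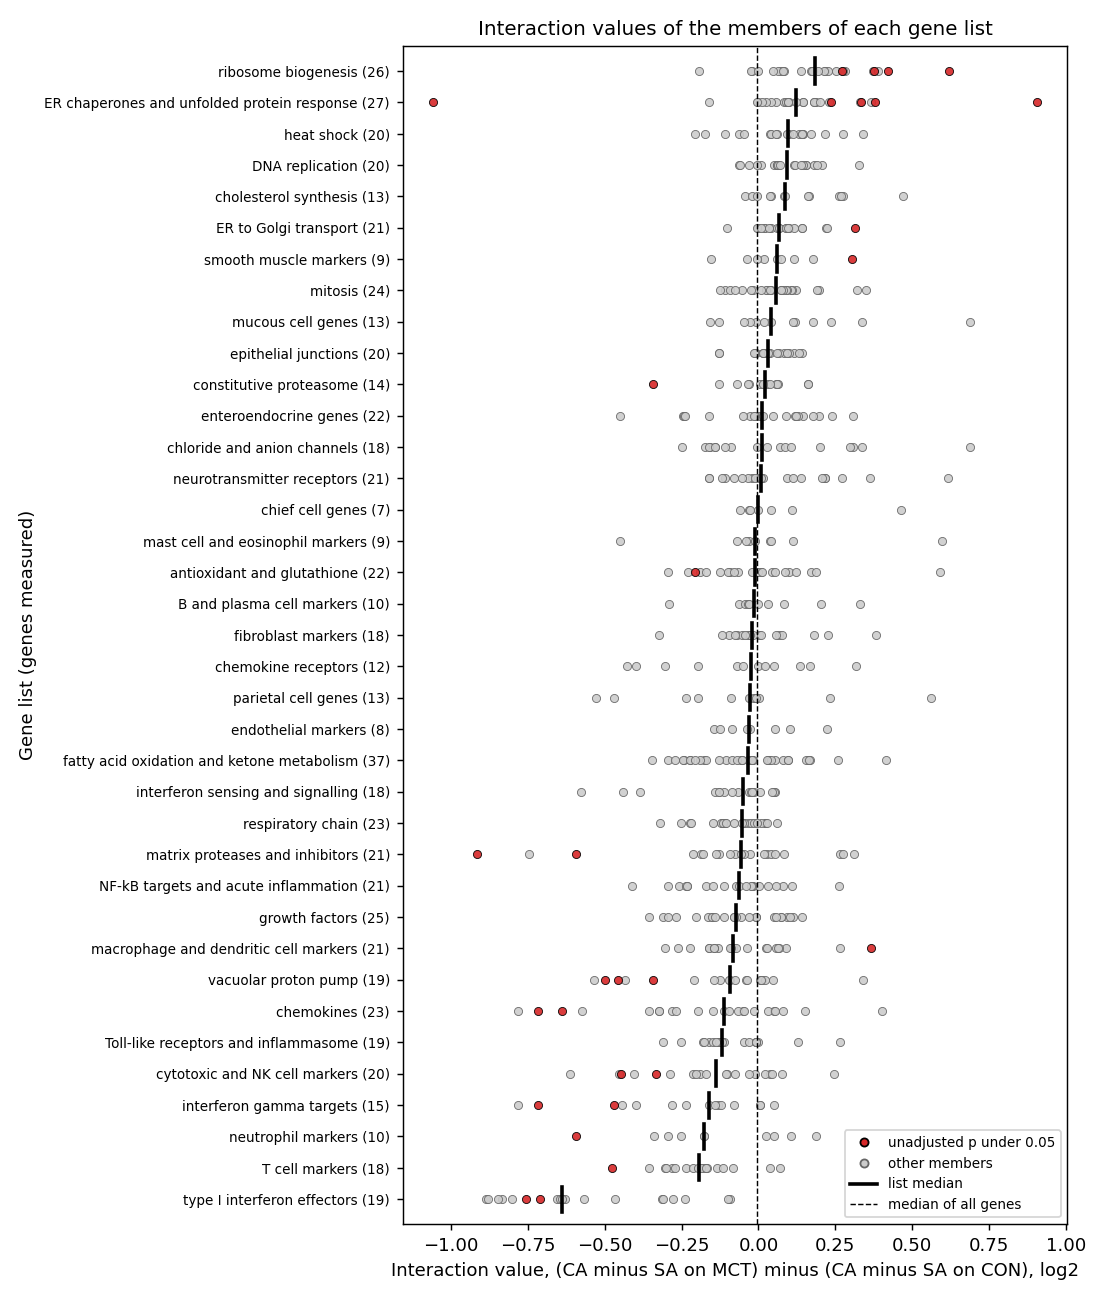
Interaction value (x axis, log2) of each measured member of each gene list (y axis, with the number of genes measured), with the list medians as bars, the median of all genes as a dashed line and members at an unadjusted p under 0.05 in red. The type I interferon effectors have the lowest median, -0.64, and ribosome biogenesis the highest, 0.19.

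Growth and protein synthesis genes had values on the positive side. Of 37 ribosome biogenesis genes 26 were measured, 22 with a positive value, and the median was 0.19, with 4 members (15.4%, against 2.53% of all genes) at an unadjusted p under 0.05, all positive (1.28% of all genes). The median CA minus SA difference of the list was -0.19 on CON and -0.03 on MCT, so the positive values came from CON, where CA was the lower group. GNL3 or nucleostemin, a nucleolar GTPase of dividing cells, had lowest, median and highest log2 intensities of 5.63, 6.18 and 6.46 in SA CON, 4.41, 5.77 and 6.03 in CA CON, 5.79, 5.90 and 6.20 in SA MCT and 5.66, 6.04 and 6.31 in CA MCT. Pig 4 was far below the other piglets, and the interaction was 0.62 ± 0.27 with it and 0.39 without it.

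NCL or nucleolin, which organises ribosomal RNA genes, had medians of 7.52 in SA CON, 7.24 in CA CON, 7.23 in SA MCT and 7.43 in CA MCT (interaction 0.42 ± 0.19), with overlap on both diets. NOL6 (0.38 ± 0.15) and HEATR1 (0.27 ± 0.10), components of the complex that processes the small subunit, followed. As the mean over the list, pig 4 stood at -0.49 and the other CA CON piglets between -0.15 and 0.01, below or at the lower end of SA CON (-0.01 to 0.26). The list median was 0.14 without pig 4, 0.08 without pigs 4 and 22 and 0.07 without pigs 4, 10 and 22.

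Chaperones and stress factors of the ER were positive in 23 of 27 measured genes (34 listed), with a median of 0.12 and 5 members (18.5%, against 2.53% of all genes) at an unadjusted p under 0.05, 4 positive and 1 negative. HSPA5 or BiP, the main chaperone of the ER lumen, had lowest, median and highest log2 intensities of 10.49, 10.61 and 11.11 in SA CON, 10.27, 10.41 and 10.50 in CA CON, 10.33, 10.51 and 10.74 in SA MCT and 10.43, 10.54 and 10.93 in CA MCT. On CON the CA piglets lay below nearly all SA piglets, and on MCT the groups covered the same range. The CA minus SA difference was -0.29 ± 0.10 on CON and 0.04 ± 0.10 on MCT, an interaction of 0.33 ± 0.14. With 1 piglet left out, the interaction of HSPA5 ran from 0.25 without pig 13, the highest SA CON piglet, to 0.37 without pig 19.

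SDF2L1, which holds BiP on unfolded clients, had a value of 0.91 ± 0.36, with SA CON running from 4.83 to 6.93 (pig 13) and the other 3 groups from 4.24 to 5.83. Pig 13 weighed on it, since the value was 0.63 without that piglet. DNAJB11, a co-chaperone of BiP (0.38 ± 0.16), and PDIA4, a disulphide isomerase (0.24 ± 0.11), were also positive, whereas XBP1, a transcription factor that raises such genes, had a value of 0.00 ± 0.11. Unlike the ribosome list, the ER list had a similar median without pigs 4 and 22 (0.15). With 1 piglet left out, that median ran from 0.08 without pig 13 to 0.17 without pig 20. Members at an unadjusted p under 0.05 numbered 4 without pigs 4 and 22, 1 without pig 10 and 2 without pigs 4, 10 and 22.

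CHAC1, an enzyme that breaks down glutathione and is induced by ATF4, went the other way within the ER list (-1.06 ± 0.47, 95% interval -2.03 to -0.09). Its lowest, median and highest log2 intensities were 4.64, 4.84 and 5.64 in SA CON, 4.41, 4.95 and 5.74 in CA CON, 4.68, 5.51 and 7.56 in SA MCT and 3.98, 4.80 and 5.01 in CA MCT. SA MCT was the high group, led by pig 20, and without that piglet the value was -0.69. ATF4 itself (0.02 ± 0.11) and another target, ASNS (0.12 ± 0.36), had values smaller than 1 SE.

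Lists next to these in the path of secretion and growth leaned the same way with smaller values. Genes of ER to Golgi transport were positive in 18 of 21 (median 0.07), with LMAN1, a cargo receptor, at 0.31 ± 0.15. Heat shock genes were positive in 15 of 20 (median 0.10), DNA replication genes in 16 of 20 (median 0.09, and 0.03 without pigs 4 and 22), mitosis genes in 17 of 24 (0.06, and 0.00 without pigs 4 and 22) and cholesterol synthesis genes in 10 of 13 (0.09, and 0.04 without pig 12). The mitosis median was 0.08 without pigs 4, 10 and 22, when 21 of 24 genes were positive, and ran from -0.05 without pig 18 to 0.18 without pig 17. That of DNA replication ran from 0.02 without pig 15 to 0.18 without pig 17. Respiratory chain genes were negative in 18 of 23 (median -0.05). Genes of fatty acid oxidation and ketone metabolism, the path that medium chain fatty acids enter, were negative in 23 of 37 (-0.03). With all 24 piglets, 0 members of either list were at an unadjusted p under 0.05. Without pigs 4 and 22 the fatty acid list had 4 such members of 37, against 5.53% of all genes, and a median of -0.07. The respiratory chain list then had 1 such member of 23. In the constitutive proteasome PSMA4 had a negative value (-0.34 ± 0.13), against a list median of 0.02, and the mitochondrial thioredoxin TXN2 one of -0.21 ± 0.09.

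**Figure D5:**
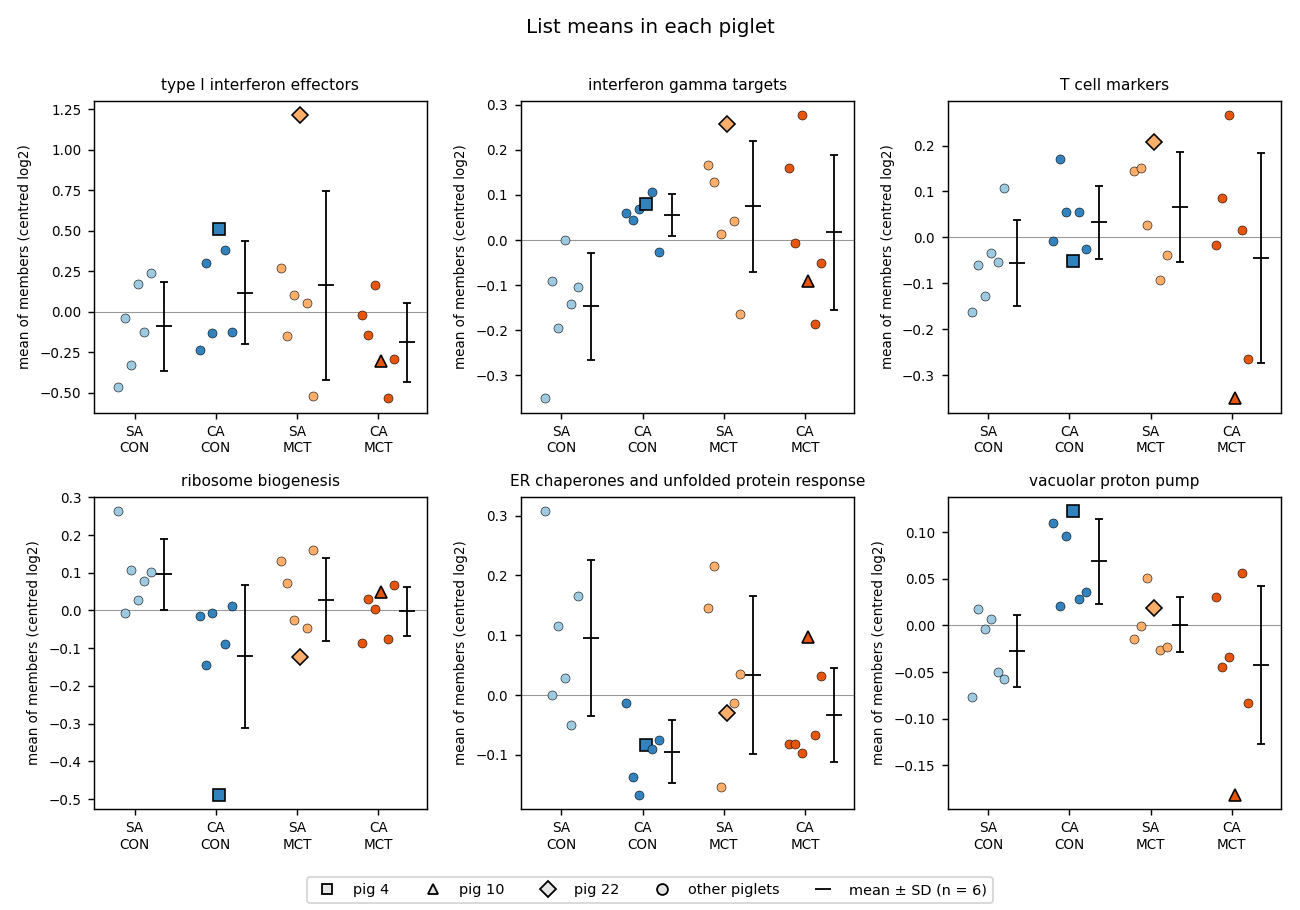
Mean of the members of 6 lists in each piglet, as log2 intensity centred on the mean of all piglets (y axis), by group (x axis), with the group mean and SD beside the points. Pig 22 (diamond) stands at 1.22 for the type I interferon effectors and pig 4 (square) at -0.49 for ribosome biogenesis, away from the other piglets of their groups.

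Genes of the acid-secreting and hormone cells had list medians near zero with all 24 piglets, over members that differed. Among 13 parietal cell genes the median was -0.03 (10 negative), and -0.15 without pigs 4 and 22, with single values from -0.53 to 0.56. ATP4A (-0.03 ± 0.09, 95% interval -0.21 to 0.15) and ATP4B (-0.03 ± 0.10) were bounded to well below a 2-fold change. KCNE2, a subunit of the potassium channel that the gastric pump needs, had a value of -0.47 ± 0.25, with medians of 9.06 in SA CON, 9.15 in CA CON, 9.07 in SA MCT and 8.89 in CA MCT and overlap on both diets. GHRL, which encodes ghrelin, had a value of 0.00 ± 0.22, chief cell genes had a median of 0.00 (7 genes), and enteroendocrine genes one of 0.01 (22 genes, from -0.45 to 0.31). The enteroendocrine median was 0.12 without pig 10, when 16 of 22 genes were positive, -0.05 without pig 22 and -0.07 without pigs 4 and 22.

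Larger values with wide errors were found for 2 genes of other functions. HTR1B, a serotonin receptor, stood at medians of 5.22 in SA CON, 5.19 in CA CON, 5.25 in SA MCT and 5.57 in CA MCT, with pig 4 at 3.88, and had an interaction of 0.62 ± 0.31, and of 0.38 without pig 4. CLCA1, a secreted regulator of chloride channels and mucus, had medians of 7.44 in SA CON, 7.72 in CA CON, 6.58 in SA MCT and 7.86 in CA MCT (interaction 0.69 ± 0.45). SA MCT was its low group, and its CA minus SA difference was 0.21 ± 0.32 on CON and 0.90 ± 0.32 on MCT, of the same sign on both diets, unlike the 20 leading genes.

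Genes named in the text of the study, a list chosen in part on these samples and therefore no independent evidence of a direction, were negative in 17 of 25 measured cases (median -0.23, and -0.06 without pig 18). The other lists had medians between -0.07 and 0.04 with all 24 piglets. Among them, the median of the matrix proteases and inhibitors was -0.15 without pigs 4 and 22, when 16 of 21 were negative, and that of interferon sensing and signalling -0.11 without pig 4. These lists were those for growth factors (17 of 25 genes negative), NF-kB targets and acute inflammation (15 of 21), matrix proteases and inhibitors (13 of 21), interferon sensing and signalling (14 of 18), chemokine receptors (7 of 12), antioxidant and glutathione genes (12 of 22), mast cells and eosinophils (5 of 9), neurotransmitter receptors (10 of 21), chloride and anion channels (9 of 18), epithelial junctions (5 of 20) and mucous cells (5 of 13).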

How the data were processed

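Per the labels and the study's methods, total RNA of the oxyntic mucosa was hybridised to Affymetrix Porcine Gene 1.1 ST arrays, and the authors summarised the scans by Robust Multichip Analysis (background correction, quantile normalization and probe summary). The deposited values were intensity on a linear scale, and log2 was taken here. Intensities near the array background are compressed by this summary, and no detection calls were used. Median intensity per array was 23.13 to 26.44. A genome build for the array was not given in the sources used here.

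Of 27558 transcript clusters, 11939 had 1 symbol in the platform annotation, 416 several and 15203 none, and 10922 of the named ones carried the same symbol in RefSeq. The brightest cluster was kept for 958 symbols with several, which left 10882 genes. These were fitted with limma 3.58.1 in R 4.3.3 as 4 group means, with no covariate, two-sided moderated tests (20 residual degrees of freedom) and adjustment by Benjamini and Hochberg over all genes. Errors are standard errors of that fit with n = 6 per group, and with 24 arrays their number limits the precision. Nothing in the labels gives the litter, sex or pen of a piglet, so p-values take piglets as independent. The script was tested on simulated data.

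The genes named are the 10 highest and 10 lowest by moderated t, and a part of 2 wider selections. These were, in each of 37 lists, the 4 members with the lowest p, and the genes in the study's text. Not every gene of these selections is described, IFIH1, IRF9, CCL11 and CXCR4 being among those left out. Some genes are on more than a single list. Further list members, SLC38A3 and the 6 genes with values beyond 1 were chosen after their values were seen. Members and lists were chosen with earlier results of these data known, so counts within lists are descriptions without a test. Alternatives were quantile normalization again, an intensity trend, array weights, robust regression, the mean of all clusters of a symbol, leaving out the 40% dimmest clusters, all clusters, leaving out each piglet, and leaving out pigs 4, 10 and 22 or pigs 4 and 22 (the last chosen after seeing the data).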

Additional observations from a re-analysis of the deposited data

Results flagged for a closer look

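Single piglets far from the other 5 of their group were looked for in the genes and list means described above. A piglet was picked out where its gap to the nearest other piglet, as a share of the range of the group, exceeded the 95% limit of Dixon's test for 6 values. Chance picks out about 1 in 20 groups, and 32 of 316 were picked out, among which pig 4 accounted for 7, pig 10 for 8 and pig 22 for 4.

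For pig 4 (CA CON) the gap was 0.839 of the range for CCL19, 0.656 for CXCL10 and 0.643 for OAS1, where it was the highest piglet, and 0.823 for PSMB9, 0.720 for GNL3, 0.716 for NOL6 and 0.685 for the mean of the ribosome biogenesis genes, where it was the lowest. For pig 10 (CA MCT) it was 0.733 for HSPA5 and 0.700 for CCDC170 on the high side, and 0.871 for SLC38A3, 0.768 for ATP6V1H, 0.661 for VMA21, 0.659 for PGA5, 0.649 for JAK3 and 0.629 for MESP1 on the low side. For pig 22 (SA MCT) it was 0.644 for XAF1 on the high side and 0.777 for SLC38A3, 0.655 for PSMA4 and 0.636 for IFITM1 on the low side.

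For pig 13 (SA CON) the gap was 0.648 for HSPA5 and 0.642 for SDF2L1 on the high side, and 0.856 for GHRL, 0.807 for TAAR1 and 0.640 for GBP1 on the low side. The remaining piglets were pig 21 (SA MCT), lowest for DNAJB11 (0.817) and highest for ATP4A (0.658), pig 15 (SA CON), highest for RTL4 (0.736), pig 8 (CA MCT), highest for STPG2 (0.698), pig 6 (CA CON), lowest for ATF4 (0.691), pig 2 (CA CON), lowest for LOC100523684 (0.680), pig 12 (CA MCT), lowest for CLCA1 (0.640), and pig 3 (CA CON), highest for ANGPTL7 (0.634).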

How the results depend on the processing

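Per the study, the groups were balanced for litter, body weight and gender. No paired or blocked analysis was possible, because the labels give no litter and the piglets of the 4 groups share no number. Littermates in different groups were therefore treated as independent. No gene passed an adjusted p of 0.05 under any alternative except robust regression, which passed 5. The 275 genes at an unadjusted p under 0.05 became 483 with array weights (41.8% positive), 733 with robust regression (43.9%), 513 without pigs 4, 10 and 22 (38.4%), 602 without pigs 4 and 22 (36.2%) and 687 of 27558 with all clusters, against 50.5% positive in the main fit, and 237 to 408 without 1 piglet (408 without pig 4). Quantile normalization, an intensity trend, the mean of clusters and leaving out dim clusters gave 195 to 354. The cause of these shifts was not tested.

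The median of the neutrophil markers (-0.18) was -0.059 with array weights, -0.082 with robust regression, -0.34 without dim clusters, -0.078 without pigs 4, 10 and 22, -0.017 without pigs 4 and 22, and -0.22 to -0.020 without 1 piglet. That of the genes the study names was -0.092 with robust regression and -0.27 to -0.064 without 1 piglet. The median of the interferon effectors ranged from -0.79 (without pig 24) to -0.38 (without pig 22) and was -0.38 with array weights. Without pigs 4 and 22 that of the parietal cell genes went from -0.03 to -0.15, and without pigs 4, 10 and 22 that of ribosome biogenesis from 0.19 to 0.07.

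Among the genes named, the sign turned only in those whose value was smaller than 1 SE. Turned values were -0.0060 for ATP6V1H, -0.012 for GHRL and -0.0062 for IRF1 after quantile normalization, -0.23 for ASNS, -0.018 for ATF4, -0.034 for GHRL and 0.039 for XBP1 with array weights, -0.024 for ATF4, 0.0096 for ATP4A, 0.022 for ATP4B and -0.019 for IRF1 with robust regression, -0.011 for ATF4 and -0.11 for GHRL without pigs 4, 10 and 22, and -0.16 for GHRL and -0.017 for IRF1 without pigs 4 and 22. Leaving out 1 piglet at a time gave -0.049 to 0.25 for ASNS, -0.026 to 0.061 for ATF4, -0.051 to 0.016 for ATP4A, -0.063 to 0.0083 for ATP4B, -0.023 to 0.085 for ATP6V1H, -0.095 to 0.099 for GHRL, -0.20 to 0.0097 for IFITM1, -0.083 to 0.077 for IRF1, -0.095 to 0.0014 for PGA5, -0.058 to 0.085 for PRF1 and -0.062 to 0.035 for XBP1. For dim genes the array background limits what can be seen.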
